A study of Rattus with 52 samples.

Results

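The 8 genes described here code for 6 enzymes and 2 regulators of cholesterol synthesis. The enzymes are Hmgcs1 (ENSRNOG00000016552), Idi1 (ENSRNOG00000016690), Fdps (ENSRNOG00000043377), Fdft1 (ENSRNOG00000021314), Sqle (ENSRNOG00000009550) and Lss (ENSRNOG00000054549). The regulators are Srebf2 (ENSRNOG00000007400) and Insig1 (ENSRNOG00000006859). They were taken by gene name from the table of single libraries, and all 8 were found, of 20624 genes in the series. None of the 8 codes for a protein that itself takes up cholesterol. The samples are RNA of left ventricle (LV) and of kidney, taken from male Sprague Dawley rats that were operated at 10 weeks of age. The surgery was either Sham or 5/6Nx, the surgical removal of the right kidney and both poles of the left, so a 5/6Nx kidney library comes from the remnant of the left kidney. Later in the 7-week study all rats, Control rats included, lost the omentum and received an abdominal catheter. PD rats then had 3 exchanges of glucose-based peritoneal dialysate a day for 8 days, and Control rats had no dialysate. Each Sham group has 6 libraries per tissue and each 5/6Nx group 7, which gives 8 groups and 52 libraries. The labels name no rat. Serial numbers in them run in the same order of groups for both tissues, 26 apart, so libraries with such numbers may come from the same rat. The kidney library has the lower number of a pair, except for Kidney Sham Control replicates 5 and 6. These pair with LV Sham Control replicates 1 and 2, which have the lower numbers. Fits across tissues are also given with the pairing by serial number.

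Cells build cholesterol from acetyl-CoA through mevalonate, farnesyl diphosphate and squalene. When sterol in the endoplasmic reticulum is low, the SREBP-2 protein, coded by Srebf2, is carried by SCAP to the Golgi apparatus, cut, and sent to the nucleus, where it turns on the enzymes of the route, genes of cholesterol uptake, Insig1 and Srebf2 itself. INSIG1 holds the SCAP complex back when sterol is plentiful, and LXR receptors turn on genes of cholesterol export such as Abca1 and Abcg1. The tubule cells of the kidney and the muscle cells of the heart can both make cholesterol and both take up lipoproteins.

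Values are normalized reads, that is, reads per gene divided by a size factor of the library, or differences on the log2 scale on which the table was deposited. A gene with 100 normalized reads has a value of 7.67 on that scale and a gene with 1000 a value of 10.13. Log2 differences of genes with few reads are therefore smaller than the log2 of their folds, and folds of mean normalized reads are given beside most differences that the text takes up one by one. Depth, the sum of reads over genes, ran from 16.7 M to 111.8 M per library (M, mega, median 44.2 M) and was lowest in Kidney Sham PD replicate 4. Heart and kidney markers followed the labels, as the 4 cardiomyocyte markers summed to at least 1507640.0 normalized reads in every LV library and to at most 462 in any kidney library. The first principal component of the LV held 37.5% of the variance, and LV Sham PD replicate 2 scored -2.42 on it (arbitrary units) where the other 5 libraries of its group scored 21.2 to 44.1. Several results that rest on LV Sham PD are therefore also given without that library. The 5/6Nx groups of the LV were spread widely on the same component too. Scores ran from -41.8 to 19.9 (replicate 3) in LV 5/6Nx Control and from -46.1 to 6.44 (replicate 7) in LV 5/6Nx PD. The first component of the kidney held 57.0% of the variance. On it Kidney 5/6Nx Control replicate 6 scored -4.84, where the others of its group scored 12.9 to 57.7. A gene was called when its adjusted p in limma (Benjamini-Hochberg over all genes tested) was under 0.05, and error after ± is SD for normalized reads and SE for log2 differences. Nothing in the labels says that libraries of a group shared a rat, and p-values measure the spread between these libraries. In bulk tissue, fewer cells of a type and less RNA per cell cannot be told apart. The table gives no transcript lengths, so levels are compared between groups and not between genes.

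**Figure D1:**
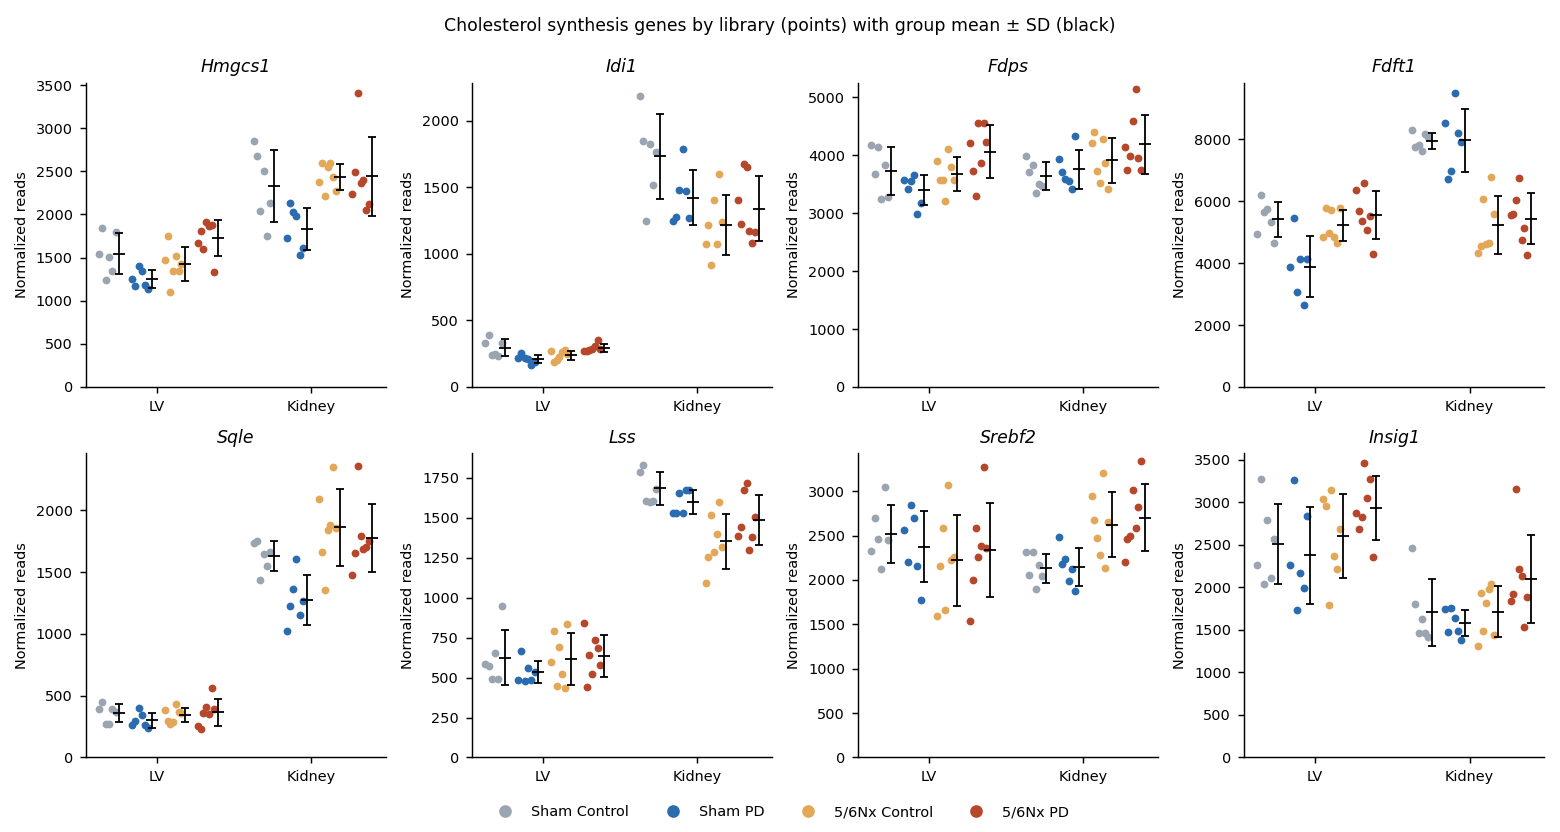
Normalized reads (vertical axes, from 0) of the 8 genes in each of the 52 libraries, by tissue and group. Points are libraries, and black marks are the group mean ± SD, over 6 libraries for Sham and 7 for 5/6Nx. Idi1, Sqle and Lss are far lower in the LV than in the kidney, and Fdft1 is lowest of the LV groups in Sham PD. In the kidney Fdft1 separates Sham Control from 5/6Nx Control, while the PD groups of the 2 surgeries overlap.

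Between the tissues of Sham Control rats, 5 of the 6 enzymes were lower in the LV than in the kidney and both regulators were higher, so 7 of the 8 genes were called. At this contrast 78.6% of 16520 genes were called (37.4% higher and 41.2% lower in the LV), so a call by itself sets these genes apart little. Idi1, which isomerises isopentenyl diphosphate, had 296 ± 64.8 normalized reads in the LV against 1732 ± 319 in kidney libraries, a 5.86-fold lower level (log2 difference -2.18 ± 0.13, adjusted p = 2.99e-10). Sqle, the squalene epoxidase, was 4.56-fold lower (357 ± 72.9 against 1629 ± 120.1, adjusted p = 8.6e-11), and Lss, the lanosterol synthase, was 2.70-fold lower (624 ± 171 against 1683 ± 102, adjusted p = 5.46e-08). For these genes, and for Fdft1, no LV library of the group reached any kidney library of the group. The share of all genes without overlap was not counted. Hmgcs1, the cytosolic HMG-CoA synthase, and Fdft1, the squalene synthase, were 1.51- and 1.47-fold lower, with adjusted p = 0.000698 and 4.65e-06. Fdps, the farnesyl diphosphate synthase, stood at 3726 ± 409 in the LV and 3643 ± 238 in the kidney (95% CI of the log2 difference -0.14 to 0.19) and was not called. Insig1 was 1.47-fold higher in the LV (adjusted p = 0.00228). Srebf2 was 1.18-fold higher (adjusted p = 0.0254), and its call was lost with all 8 groups in the same fit (adjusted p = 0.108) and without LV Sham Control replicate 2 or 5 or Kidney Sham Control replicate 4 (adjusted p up to 0.061).

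The other enzymes of the route followed the same direction: of the 14 on that list, 10 were lower in the LV and 3 higher. The median log2 difference was -0.55 over the 8 genes and -0.91 over these 14, beside -0.05 over all genes tested. The size factors were computed over both tissues together, and TMM scaling moved the median of all genes to -0.09 and kept the 7 calls.

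Within the LV, Sham PD had the lowest group mean of 7 of the 8 genes, all but Srebf2, and 5/6Nx PD had the highest of 6, all but Idi1 and Srebf2. Of the 24 steps between neighbouring group means in the LV, 19 were smaller than the smaller of the 2 SDs, so most of that order lies within the spread of the libraries. The 5 larger steps were those from Sham PD to 5/6Nx Control for Hmgcs1, Fdps, Fdft1 and Lss, and from 5/6Nx Control to 5/6Nx PD for Idi1.

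The question of the study was what dialysate does to heart and kidney with and without loss of kidney mass. In the LV of Sham rats all 8 genes had lower means with PD than without, as 7620 of 15759 genes did on the log2 scale. None of the 8 was called by limma, at a contrast where 1.23% of all genes were. Unadjusted, 3 of the 8 had p under 0.05, beside 3072 of the 15759 genes. Limma-voom called 0 of the 8, and limma-voom with sample quality weights called 2, Fdft1 and Idi1, of 1409 genes in all. Fdft1 had 4655 to 6193 (median 5496) normalized reads in Sham Control libraries against 2641 to 5454 (median 4009.9) in Sham PD libraries. All but LV Sham PD replicate 2, at 5454, lay below every Control library, and the means were 5418 ± 564 and 3883 ± 982 (a 1.40-fold lower mean, log2 difference -0.50 ± 0.14, adjusted p = 0.0967). Idi1 had 231 to 393 (median 288) without and 166 to 257 (median 216) with PD, and 5 of 6 PD libraries lay below every Control library (a 1.41-fold lower mean, log2 difference -0.34 ± 0.11, adjusted p = 0.134). Hmgcs1 had 1238 to 1841 (median 1528) without and 1136 to 1401 (median 1215) with PD, with 3 of 6 PD libraries below every Control library (a 1.24-fold lower mean, log2 difference -0.28 ± 0.10, adjusted p = 0.149). The other 5 had log2 differences from -0.19 (Sqle) to -0.09 (Insig1), with adjusted p from 0.418 to 0.775. The median over the 8 was -0.18, beside 0.01 over all genes tested.

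Without LV Sham PD replicate 2, Fdft1 and Idi1 passed the threshold, with log2 differences of -0.60 and -0.38 and adjusted p = 0.0165 and 0.0494. The share of all genes called then rose to 10.4%. Markers of other cells moved with the same groups. The 4 neutrophil markers summed to 1679 to 7079.8 normalized reads in Sham Control and 9971 to 21475 in Sham PD. The 5 macrophage markers summed to 7641 to 17456 and 15308 to 22132, and the 2 erythroid markers to 4561 to 6476 and 8732 to 10988. The 4 cardiomyocyte markers summed to 1985920.0 to 2971290.0 (median 2201880.0) and 1507640.0 to 2420710.0 (median 2234600.0), which overlapped with a median no lower under PD. None of these markers was at 0 throughout a group. Their part in the differences was not tested.

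In the LV of 5/6Nx rats the means of all 8 genes were higher with PD than without, as 7724 of 15622 genes were on the log2 scale. Again none of the 8 was called by limma (0.0896% of all genes were). At an unadjusted p under 0.05 there were 2 of the 8, beside 1333 of the 15622 genes. Neither form of limma-voom called any of the 8. Hmgcs1 had 1106 to 1748 (median 1429) in 5/6Nx Control against 1328 to 1912 (median 1808) in 5/6Nx PD libraries, and 4 of 7 PD libraries lay above every Control library (a 1.21-fold higher mean, log2 difference 0.26 ± 0.10, adjusted p = 0.462). Idi1 had 189 to 278 (median 248) and 271 to 356 (median 286), with 5 of 7 above (a 1.23-fold higher mean, log2 difference 0.22 ± 0.09, adjusted p = 0.471). The other 6 had log2 differences of 0.05 (Lss) to 0.18 (Insig1). The median over the 8 was 0.11.

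Whether the change with PD differed between the surgeries was tested as an interaction, the change in 5/6Nx minus the change in Sham rats. In the LV, Idi1 was the only one of the 8 called (0.57 ± 0.14 on the log2 scale, adjusted p = 0.0468), where 0.693% of 16312 genes were called and 0.331% were called in that direction. The call is close to the threshold. It was lost without a filter on low reads (adjusted p = 0.0574), under TMM scaling (adjusted p = 0.0527), and in 20 of the 26 fits that left out a library (adjusted p up to 0.094). It was kept only without LV Sham Control replicate 3 or 5, LV Sham PD replicate 2, LV 5/6Nx Control replicate 1, or LV 5/6Nx PD replicate 3 or 7. Hmgcs1 (0.54 ± 0.14, adjusted p = 0.0572) and Fdft1 (0.58 ± 0.17, adjusted p = 0.0859) were not called. Without LV Sham PD replicate 2 all of these were, with adjusted p = 0.0227 for Idi1, 0.0238 for Fdft1 and 0.0437 for Hmgcs1, at 3.90% of all genes called. Hmgcs1 also passed without LV Sham Control replicate 3 or 5, LV 5/6Nx Control replicate 1 or 2, or LV 5/6Nx PD replicate 7, and both it and Fdft1 with sample quality weights. Fdps, the fourth of the 8 with an unadjusted p under 0.05, stood at 0.26 ± 0.12 (adjusted p = 0.225). Of all 16312 genes, 2961 had an unadjusted p under 0.05 in this contrast. Both changes enter this contrast with their own Control libraries, so the values for each surgery above are its parts. Over both surgeries together, the change with PD in the LV was called for none of the 8 (0.417% of 16312 genes, with 0 of the 8 at an unadjusted p under 0.05, 0 by limma-voom, and 0 with quality weights). Its log2 values ran from -0.19 (Fdft1) to 0.06 (Insig1).

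**Figure D2:**
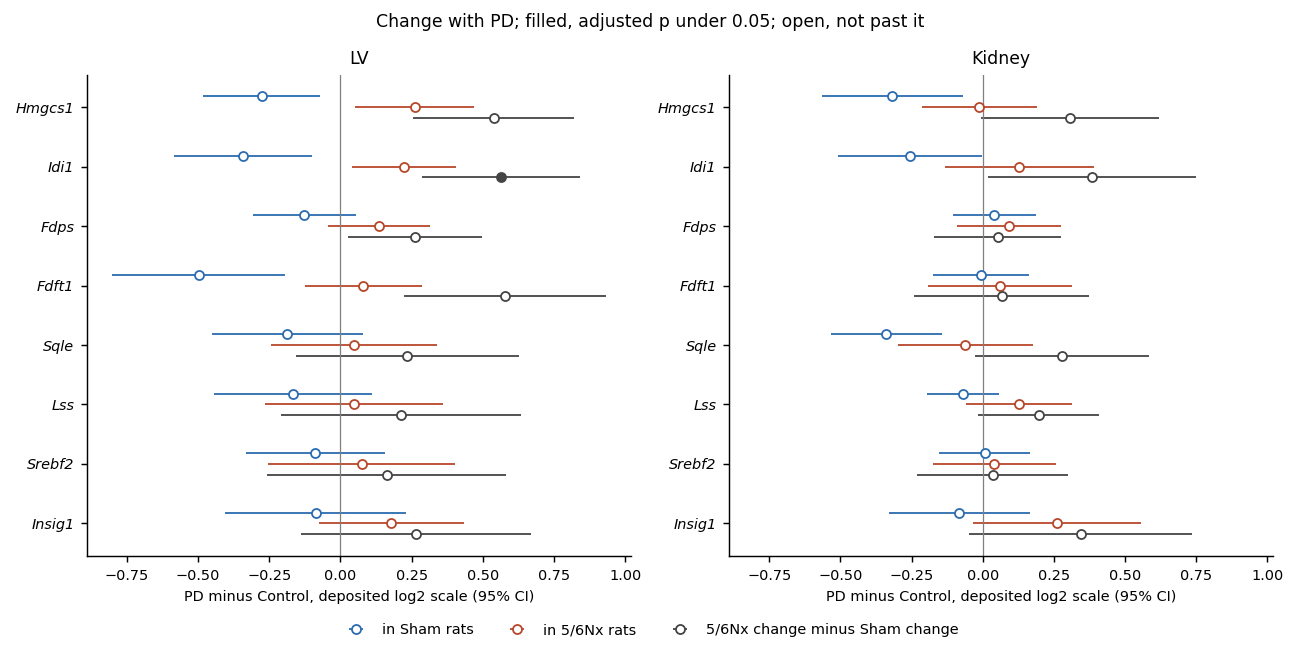
Difference of PD from Control on the deposited log2 scale (horizontal axes) for the 8 genes in the LV and the kidney. Blue is Sham, red is 5/6Nx, grey is the 5/6Nx change minus the Sham change, points are limma estimates, lines are 95% confidence intervals, and filled points have an adjusted p under 0.05. In the LV every blue point lies below 0 and every red point above it, and Idi1 in grey is the only filled point.

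Without dialysis, 5/6Nx and Sham rats differed in none of the 8 genes in the LV by limma (0.0697% of 15792 genes called, 0 of the 8 at an unadjusted p under 0.05, and 0 called by limma-voom with or without quality weights). The lowest log2 difference was that of Idi1 (-0.21 ± 0.11, adjusted p = 0.328), and the median over the 8 was -0.05. Under PD, 4 of the 8 genes were called, each higher in 5/6Nx than in Sham rats: Hmgcs1, Idi1, Fdps and Fdft1, which act in that order on the way to squalene. Of all 15800 genes 37.8% were called in that comparison, 18.2% of all genes as higher, so 4 of 8 is above the overall share in that direction, with no test of the list made.

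Hmgcs1 had 1136 to 1401 (median 1215) normalized reads in LV Sham PD and 1328 to 1912 (median 1808) in LV 5/6Nx PD, with 1 of the 7 5/6Nx libraries inside the Sham range. It was 1.38-fold higher (log2 difference 0.43 ± 0.09, adjusted p = 0.00252). Idi1 had 166 to 257 (median 216) against 271 to 356 (median 286), with no overlap, and was 1.40-fold higher (log2 difference 0.35 ± 0.09, adjusted p = 0.00651). Fdft1 had 2641 to 5454 (median 4009.9) against 4287 to 6575 (median 5534), where the overlap came from LV Sham PD replicate 2 alone, and was 1.43-fold higher (log2 difference 0.53 ± 0.14, adjusted p = 0.0117). Fdps had 2988 to 3652 (median 3489) against 3295 to 4557 (median 4206), with 6 of 7 5/6Nx libraries above every Sham library, and was 1.20-fold higher (log2 difference 0.25 ± 0.09, adjusted p = 0.035). The calls of Hmgcs1, Idi1 and Fdft1 held with each library left out in turn. That of Fdps was lost under TMM scaling (adjusted p = 0.0741) and without LV Sham PD replicate 5 or 6 or LV 5/6Nx PD replicate 1, 4, 6 or 7 (adjusted p up to 0.0864). Insig1 was at 0.31 ± 0.13 (adjusted p = 0.0724) and passed without LV Sham PD replicate 2 (0.40, adjusted p = 0.0131), without LV Sham PD replicate 6 or LV 5/6Nx PD replicate 7, and with sample quality weights. Sqle, Lss and Srebf2 were at 0.19, 0.19 and -0.03, none of them called.

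The same LV groups differed in the markers of several cell types. The 4 cardiomyocyte markers summed to 1507640.0 to 2420710.0 normalized reads in Sham PD and 2492130.0 to 3504800.0 in 5/6Nx PD, and the 5 macrophage markers to 15308 to 22132 and 4312 to 10694. The 4 fibroblast markers summed to 91158 to 124970.0 and 29492 to 85684, and the 3 of 4 endothelial markers with a row to 56499.9 to 78436 and 30937 to 62586. Cardiomyocyte, macrophage and fibroblast sums did not overlap between these groups, no marker of these lists was at 0, and their part in the 4 calls was not tested.

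**Figure D3:**
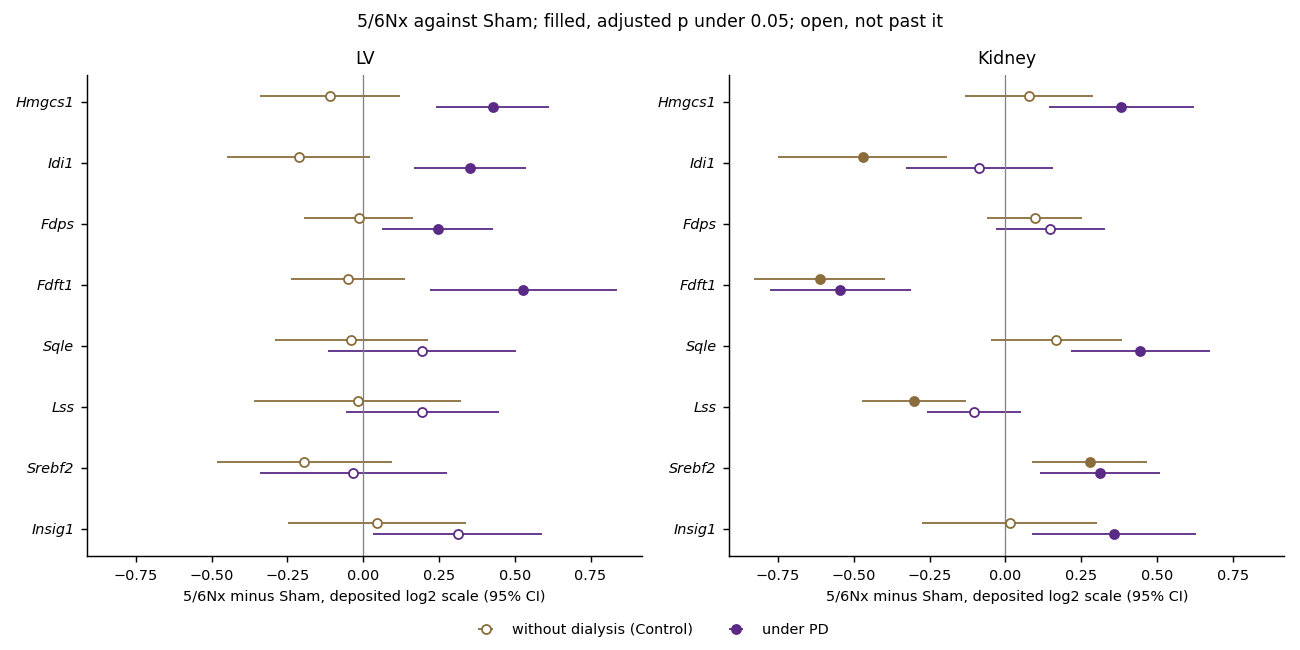
Difference of 5/6Nx from Sham on the deposited log2 scale (horizontal axes) for the 8 genes in the LV and the kidney. Brown is without dialysis, purple is under PD, points are limma estimates, lines are 95% confidence intervals, and filled points have an adjusted p under 0.05. Filled points in the LV are 4 purple ones, all above 0, whereas in the kidney Fdft1 is filled below 0 and Srebf2 above 0 in both colours.

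In the kidney without dialysis, 3 of the 8 genes were lower in 5/6Nx than in Sham rats (Fdft1, Idi1 and Lss) and 1 was higher (Srebf2). The background was high, as 52.2% of 16419 genes were called, 24.4% higher and 27.7% lower, so 4 calls of 8 is near the share among all genes. Fdft1 had 7619 to 8293 (median 7942) normalized reads in Sham Control against 4321 to 6783 (median 4640.3) in 5/6Nx Control, with no overlap. Its mean was 1.52-fold lower (5226 ± 934 against 7954 ± 262, log2 difference -0.61 ± 0.10, adjusted p = 0.000283). Idi1 had 1249 to 2183 (median 1796) against 914 to 1597 (median 1214), which overlapped, and was 1.42-fold lower (log2 difference -0.47 ± 0.13, adjusted p = 0.00775). Lss had 1596 to 1832 (median 1642) against 1089.8 to 1600.0 (median 1317), with 6 of 7 5/6Nx libraries below every Sham library, and was 1.25-fold lower (log2 difference -0.30 ± 0.08, adjusted p = 0.00632). Srebf2 had 1896 to 2318 (median 2112) against 2140.0 to 3201 (median 2655), with 5 of 7 above every Sham library, and was 1.23-fold higher (log2 difference 0.28 ± 0.09, adjusted p = 0.0176). These 4 calls held with each library left out. Hmgcs1, Fdps, Sqle and Insig1 were at 0.08, 0.10, 0.17 and 0.01 and were not called, although Sqle passed without Kidney 5/6Nx Control replicate 3 (0.24, adjusted p = 0.0299).

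Under PD, 5 of the 8 genes were called in the kidney, with Fdft1 lower in 5/6Nx and Hmgcs1, Sqle, Srebf2 and Insig1 higher. Of 16450 genes 40.1% were called, 20.2% higher and 19.9% lower. Fdft1 had 6709 to 9482 (median 8064) in Sham PD and 4253 to 6744 (median 5548) in 5/6Nx PD, where a single 5/6Nx library reached the lowest Sham library, and was 1.47-fold lower (log2 difference -0.55 ± 0.11, adjusted p = 0.00134). Sqle had 1025 to 1609 (median 1245) against 1477 to 2354 (median 1699), with 6 of 7 above every Sham library, and was 1.39-fold higher (log2 difference 0.45 ± 0.11, adjusted p = 0.00442). Hmgcs1 had 1531 to 2130.2 (median 1854) against 2052 to 3411 (median 2362), with 5 of 7 above, and was 1.33-fold higher (log2 difference 0.38 ± 0.11, adjusted p = 0.014). Srebf2 had 1872 to 2482 (median 2151) against 2206 to 3337 (median 2591), with 5 of 7 above, and was 1.26-fold higher (log2 difference 0.31 ± 0.09, adjusted p = 0.0158). Insig1 had 1381 to 1758 (median 1565) against 1535 to 3159 (median 1919.7), with 6 of 7 above, and was 1.33-fold higher (log2 difference 0.36 ± 0.13, adjusted p = 0.0351). Its call was lost without Kidney Sham PD replicate 2, 4, 5 or 6 or Kidney 5/6Nx PD replicate 4 or 5 (adjusted p up to 0.0689). The other 4 calls held with each library left out. Kidney 5/6Nx PD replicate 3 was the highest of its group in Hmgcs1, Sqle and Insig1, and without it these stood at 0.30, 0.38 and 0.26 and stayed called (adjusted p = 0.0143, 0.00524 and 0.0352).

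Idi1 and Lss were thus called in 5/6Nx kidneys only without dialysis, and Hmgcs1, Sqle and Insig1 only under PD. The difference between these comparisons is the interaction of surgery and PD, and it was called for none of the 8 genes, nor for any gene of the table (0% of 17096, with 765 at an unadjusted p under 0.05, 0 called by limma-voom and 0 with quality weights), so the comparisons are not shown to differ. Its log2 values were above 0 for all 8, from 0.03 (Srebf2) to 0.38 (Idi1, adjusted p = 0.954), with 1 of 8 at an unadjusted p under 0.05 and 0 called by either form of limma-voom. The kidney groups also differed in cell markers. The 4 proximal tubule markers summed to 213444 to 260545 normalized reads in Sham Control, 33329 to 175362 in 5/6Nx Control, 157277 to 238896 in Sham PD and 39674 to 120354 in 5/6Nx PD. The 5 macrophage markers summed to 1923 to 4392, 5496 to 17382, 3679.8 to 7231 and 10619 to 19091 in the same order of groups, and the 4 fibroblast markers to 6749 to 12934, 9188 to 66444, 9888 to 20379.5 and 27779 to 93606. No marker of these lists was at 0 in a group, and their part in the calls was not tested.

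With PD against Control in Sham kidneys, none of the 8 genes was called by limma (0.143% of 16090 genes were). At an unadjusted p under 0.05 there were 3, Sqle, Hmgcs1 and Idi1, each with a lower mean under PD, beside 2780 of the 16090 genes. Limma-voom called 0 of the 8. Sqle had 1434 to 1754 (median 1654) in Sham Control against 1025 to 1609 (median 1245) in Sham PD, with 5 of 6 PD libraries below every Control library (a 1.28-fold lower mean, log2 difference -0.34 ± 0.09, adjusted p = 0.11). It passed with sample quality weights (adjusted p = 0.0392) and without Kidney Sham PD replicate 4, which had the lowest depth (-0.40, adjusted p = 0.0357). Hmgcs1 had 1755 to 2857 (median 2321) and 1531 to 2130.2 (median 1854), with 3 of 6 below (a 1.27-fold lower mean, log2 difference -0.32 ± 0.12, adjusted p = 0.19), and Idi1 was at -0.26 ± 0.12 (adjusted p = 0.283). The remaining 5 were within -0.08 (Insig1) and 0.04 (Fdps). The 4 neutrophil markers summed to 134 to 547 normalized reads in Sham Control kidneys, where Cd177 was at 0 throughout, and to 991 to 2184 in Sham PD kidneys, with no overlap. The macrophage sums of these groups, given above, overlapped and reached higher under PD. Their part in the differences was not tested.

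In 5/6Nx kidneys none of the 8 genes was called with PD either (0.0121% of 16481 genes were, with 0 of the 8 at an unadjusted p under 0.05 and 0 by limma-voom with or without quality weights). The widest log2 difference was that of Insig1, which had 1308 to 2044 (median 1811) in 5/6Nx Control against 1535 to 3159 (median 1919.7) in 5/6Nx PD (0.26 ± 0.14, 95% CI -0.03 to 0.56). Without Kidney 5/6Nx PD replicate 3, at 3159, it was 0.16. Over both surgeries together the change with PD in the kidney was called for none of the 8 (0.175% of 17096 genes, 1 of 8 at an unadjusted p under 0.05, and 0 by limma-voom with or without weights). That gene was Sqle, at -0.19 ± 0.08 (adjusted p = 0.357), and 1922 of the 17096 genes had an unadjusted p under 0.05. In the order of kidney group means, Sham PD was lowest for Hmgcs1, Sqle and Insig1, 5/6Nx Control for Idi1, Fdft1 and Lss, and Sham Control for Fdps and Srebf2. Of the 24 steps between neighbouring kidney means, 15 were smaller than the smaller SD.

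The change with PD was also compared between the tissues. In Sham rats the kidney change minus the LV change was called for none of the 8 genes (0.0869% of 17271 genes were, with 1 of 8 at an unadjusted p under 0.05 and 0 by limma-voom with or without weights). Of the 17271 genes, 2047 had an unadjusted p under 0.05. Fdft1 had the widest difference, as it stood at 7954 ± 262 and 7972 ± 1022 in the kidney while it was lower with PD in the LV (0.49 ± 0.17, adjusted p = 0.254). Without LV Sham PD replicate 2 it passed (0.60, adjusted p = 0.0492), with 0.855% of all genes called. In 5/6Nx rats the difference between the tissues was called for none of the 8 and for no gene of the table (0% of 17418, with 808 at an unadjusted p under 0.05, 1 called by limma-voom and 1 with quality weights, 0 of the 8 at an unadjusted p under 0.05, and 0 of the 8 by limma-voom with or without weights).

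The rest of the route gave the following counts. Of 14 other enzymes of sterol synthesis, 0 were called with PD in the LV of Sham rats, the LV of 5/6Nx rats, Sham kidneys or 5/6Nx kidneys. In the LV without dialysis 0 differed by surgery, and under PD there were 3 higher and 1 lower of 14 tested, 4 of 14 beside the 37.8% of all genes. These were Cyp51, the lanosterol demethylase (0.51 ± 0.10, adjusted p = 0.00217), Sc5d (0.46) and Hsd17b7 (0.32), all higher in 5/6Nx, and Lbr, which is also a protein of the nuclear envelope, lower (-0.60). The interaction in the LV was called for Cyp51 (0.56 ± 0.13, adjusted p = 0.0409) and for no other of the list. That call was lost in 15 of 26 fits that left out a library (adjusted p up to 0.0833) and without a filter (adjusted p = 0.0517). In the kidney there were 2 higher and 5 lower of 14 tested by surgery without dialysis, 7 of 14 where 52.2% of all genes were called (24.4% higher and 27.7% lower), a share near the background. Under PD there were 4 higher and 5 lower of 14 tested, 9 of 14 where 40.1% were called (20.2% higher and 19.9% lower). Of these, the lower calls of Tm7sf2, Hsd17b7 and Lbr, with adjusted p of 0.0425, 0.047 and 0.0398, were all lost under TMM scaling and with size factors within the tissue, and in 8, 10 and 7 of 13 fits that left out a library (adjusted p up to 0.0933, 0.108 and 0.0858). Of those without dialysis, Sc5d (-0.83), Dhcr7 (-0.77), which makes cholesterol from its last precursor, and Hsd17b7 (-0.60) were lower, and Mvd (0.58), of the mevalonate steps, was higher. Under PD, Mvd (0.58) was higher and Dhcr7 (-0.68) and Sc5d (-0.52) lower.

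**Figure D4:**
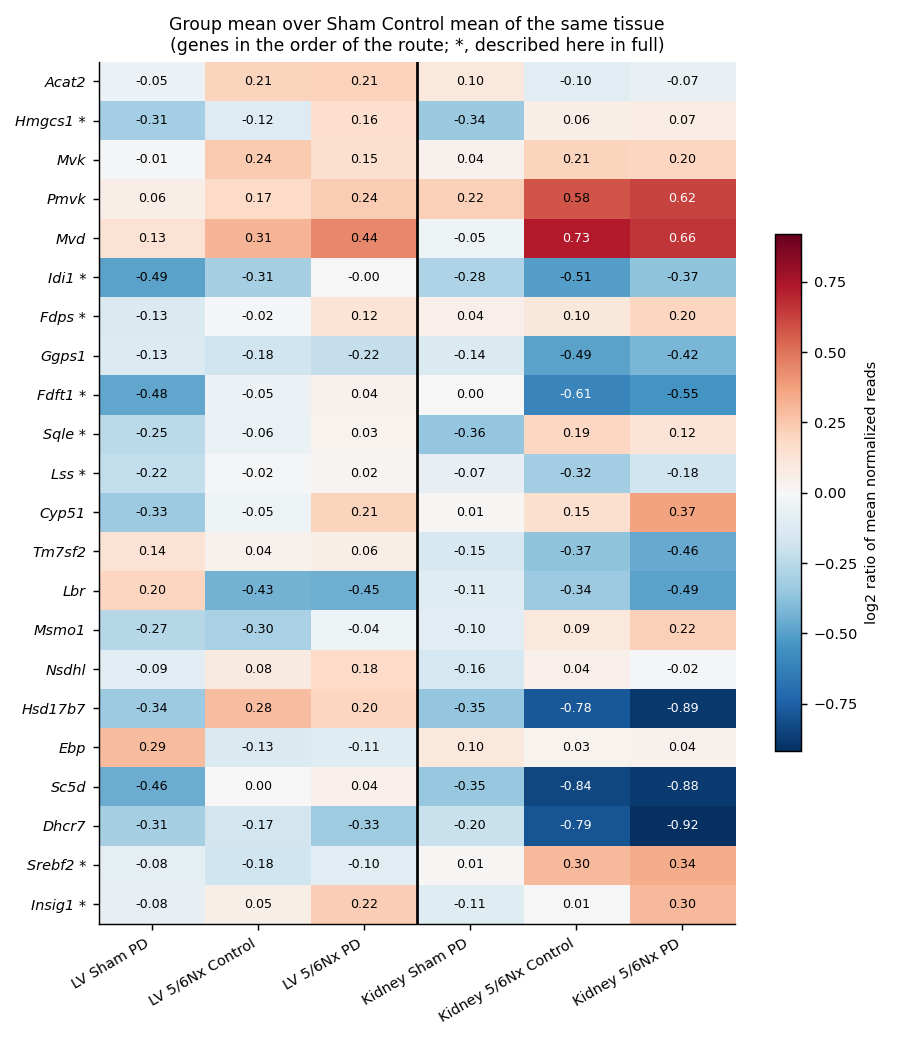
Group mean of normalized reads over the Sham Control mean of the same tissue, as a log2 ratio, for the synthesis genes in the order of the route and then Srebf2 and Insig1. Columns are groups, the vertical line parts LV from kidney, red is above Sham Control and blue below it, and stars mark the 8 genes. Kidney columns of 5/6Nx rats hold both colours, from -0.92 (Dhcr7, 5/6Nx PD) to 0.73 (Mvd, 5/6Nx Control), and 17 of the 22 LV Sham PD cells are below 0. These are the 8 starred genes and 9 of the 14 others. In limma, 7620 of 15759 genes tested were lower with PD in the LV of Sham rats. The plot carries no test.

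Genes that sense sterol, take up cholesterol or export it were counted in the same way. With PD against Control, Apoe, an apolipoprotein of lipid transport, was higher in the LV of Sham rats (0.71, adjusted p = 0.0329), and no other gene of these 3 lists was called in either tissue or surgery. The call of Apoe was lost in 9 of 12 fits that left out a library (adjusted p up to 0.0795) and with all 4 groups of the tissue in the same fit (adjusted p = 0.0641). By surgery in the LV under PD, the sensing list gave 1 higher and 3 lower of 8 tested, with Insig2 higher (0.65) and Mylip, a ubiquitin ligase (-1.19), Nr1h3, the LXR alpha receptor (-0.71), and Mbtps1 (-0.42) lower. The uptake and handling list gave 3 higher and 3 lower of 11 tested, beside 37.8% of all genes called, led by Lrp1 (-1.44) and Vldlr (0.77), followed by Nceh1 (0.65) and Soat1 (-0.58). In the LV without dialysis 0 genes of these lists were called. Under PD the efflux list gave 0 higher and 2 lower of 3 tested, Apoe (-1.13) and Abca1 (-0.95). The cardiomyocyte, macrophage, fibroblast and endothelial sums given above also differed between these groups under PD, and their part in the calls was not tested.

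In the kidney without dialysis the uptake and handling list gave 5 higher and 1 lower of 11 tested in 5/6Nx against Sham, 6 of 11 where 52.2% of all genes were called, a share near the background. The lower call, that of Vldlr (-0.27, adjusted p = 0.0377), was lost in 8 of 13 fits that left out a library (adjusted p up to 0.0864), and under TMM scaling, with size factors within the tissue and with all 4 groups in the same fit (adjusted p up to 0.0797). Scarb1, a receptor of high-density lipoprotein (1.19), Lrp1 (0.88) and Npc2 (0.78) had the largest differences, and the call of Lrp1 was lost in 7 of 13 fits that left out a library (adjusted p up to 0.0723). The efflux list gave 3 higher and 0 lower of 3 tested, Apoe (2.14), Abca1 (0.55) and Abcg1 (0.55), and the sensing list 1 higher and 3 lower of 8 tested, among them Insig2 (-0.54), Nr1h3 (-0.37), Srebf1 (0.32) and Mbtps1 (-0.28). Under PD the uptake list gave 5 higher and 0 lower of 11 tested, beside 40.1% of all genes called. Scarb1 (a 2.21-fold level) and Lrp1 (0.76) led them. The efflux list gave 1 higher and 0 lower of 3 tested (Apoe, 1.91) and the sensing list 0 higher and 3 lower of 8 tested. Macrophage and fibroblast sums, given above, were higher in the 5/6Nx groups and proximal tubule sums lower, and their part in these calls was not tested.

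The genes were then compared with each other over the 26 libraries of each tissue, after the group means were removed, so that no difference between groups enters. Libraries carry their depth and cell makeup into both genes of a pair. Over 56 pairs (28 per tissue), permutation of libraries within groups with 100000 draws gave 4 pairs in the LV and 6 in the kidney with an adjusted p under 0.05, all of them positive. The median Pearson r was 0.20 in the LV, with 22 of 28 pairs above 0, and 0.21 in the kidney, with 17 of 28 above 0. Pairs of other genes were not put through the same permutation, so these counts and medians have no background beside them. Whether the genes described here run together more closely than other genes of the same libraries was not tested. The closest pair was Hmgcs1 and Insig1 in the kidney (r = 0.76, rho = 0.71, permutation p = 1e-05 for r, the smallest that these draws can give, and 4e-05 for rho, adjusted p = 0.00056 and 0.0022). Without the 2 libraries farthest from the median of Hmgcs1, r was 0.68. In the LV the same pair had r = 0.46 and missed the threshold (adjusted permutation p = 0.095). Idi1 and Sqle passed in both tissues (r = 0.64, rho = 0.62 in the LV and r = 0.67, rho = 0.64 in the kidney, permutation p = 0.00035 and 0.00026 for r, 0.0017 and 0.00086 for rho, adjusted p = 0.0065 for r in both), and r was 0.70 and 0.59 without the 2 farthest libraries. Fdft1 and Insig1 passed in the LV (r = 0.66, rho = 0.66, permutation p = 0.0008 and 0.00074, adjusted p = 0.011 and 0.016, and r = 0.59 without the 2 farthest). The other passing pairs were Sqle with Srebf2 and Lss with Insig1 in the LV, and Hmgcs1 with Idi1, Hmgcs1 with Sqle, Idi1 with Insig1 and Fdft1 with Lss in the kidney. For Fdft1 with Lss the adjusted p of rho was 0.061, over the threshold. Srebf2, the gene of the factor itself, ran against Fdft1 in both tissues (r = -0.21 and -0.39) without passing.

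**Figure D5:**
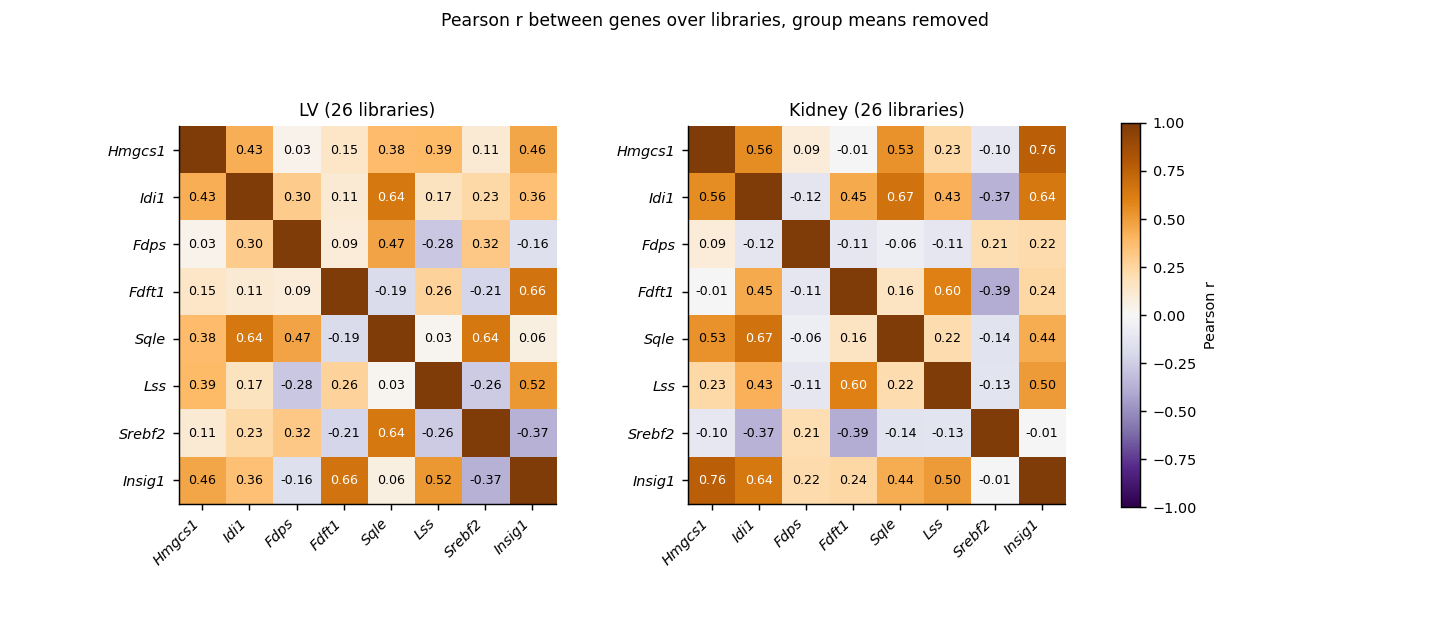
Pearson r between the 8 genes over the 26 libraries of each tissue, computed on deposited log2 values after the mean of each group was removed. Orange is positive and purple negative, and the diagonal is each gene with itself. Hmgcs1 with Insig1 in the kidney (0.76) has the highest r, and Fdft1 with Srebf2 in the kidney (-0.39) the lowest.

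Among all other genes with a mean of at least 50 normalized reads in the tissue, likeness was taken as Pearson r with the mean of the 8 genes over the 26 libraries, group means removed, as a description with no test. Of 13649 genes in the LV the 10 most alike included Mocs3 (0.76), Znhit3 (0.72), Slc41a3 (0.66), Mtss1 (0.63), Asb2 (0.63), Mks1 (0.63), LOC103691744 (0.61) and Auts2 (0.61). Of 14277 genes in the kidney the 10 most alike were Rbm48 (0.78), Hacl1 (0.71), Tfrc (0.71), Cyp2c11 (0.71), AABR07052523.1 (0.70), Snx25 (0.69), Hsd17b7 (0.69), Copb1 (0.69), Gfm1 (0.67) and Tmed4 (0.67). Hsd17b7 is of the route, and Tfrc is the transferrin receptor. The ranks of the listed pathway genes were looked up after these values were seen. In the LV such genes, counted from the most alike, included Cyp51 at rank 12, Dhcr7 at 16 and Msmo1 at 28. Other enzymes of the route ranked far lower there, among them Mvd at 6116, Pmvk at 6901, Tm7sf2 at 11826 and Ebp at 13317 (r = -0.40). Abcg1, the sterol exporter, had the lowest r of all 13649 (-0.68). In the kidney the listed genes included Nsdhl at rank 64 and Me1 at 137, but also Mvk at 8301, Mvd at 8994 and Pmvk at 12335 (r = -0.31). Scarb1, Abcg1 and Apoe had r of -0.62, -0.56 and -0.54 there.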

How the data were processed

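Polyadenylated RNA of the LV and kidney was sequenced in 52 libraries, and the labels gave the tissue, surgery and treatment of each. Per the labels and the supplementary methods, the authors trimmed reads with Trim Galore and cutadapt, aligned with HISAT2 to rn6, used StringTie2 for quantification and DESeq2 for tests. The table the authors deposited holds log2 values for 20624 genes, with a scale it does not name. They follow DESeq2's variance stabilising transformation as the authors applied it over all 52 libraries, and group means stand beside them. The authors' tables of PD against Control (fold changes and p-values) and their mean columns were not used.

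Inverting that transformation gave normalized reads and whole reads. All values (100%) were whole within 0.01 read (largest deviation 8e-08), and the size factors equal median ratios. Libraries of a group differed by a chi-square of at least 21.8 per gene, so none repeats another. Each comparison was fitted with limma 3.58.1 (R 4.3.3, statmod 1.5.0, with trend and robust) to the log2 values as deposited. A gene was tested if the number of libraries with 10 or more normalized reads reached the size of the smallest group, and was called at a Benjamini-Hochberg adjusted p under 0.05 over all genes tested, with no limit on fold. A fit held no group outside its comparison. The fits were tested on simulated reads with known changes. Alternatives were no filter, TMM scaling, log2 of normalized reads plus 1, limma-voom without and with sample quality weights, size factors within the tissue, all groups in the same fit, each library left out and, added after seeing the data, pairing of the tissues by serial number.

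The text names all 8 genes in every comparison, up to 4 called genes per list and comparison with the largest log2 difference, and the 10 most alike genes per tissue. Some genes that this rule or the lists hold are not reported here, and the counts of lists leave them out. The genes and lists were chosen with earlier results of these data known. Of the lists, Npc1l1, Cyp11b1, Nr5a1 and Pecam1 were not analysed here. The reference at hand is of another build than rn6, so no coordinates are given. Figures were drawn with matplotlib 3.10.9.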

Additional observations from a re-analysis of the deposited data

Results flagged for a closer look

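Of 64 sets of libraries (8 genes in 8 groups) tested with Dixon's criterion for a library far from the rest of its group, 4 held one. Chance alone gives about 1 in 20, and 4 of 64 is near that rate. The 8 genes share libraries, so the sets are not independent and no conclusion is drawn from the rate. Kidney 5/6Nx PD replicate 3 accounted for 3 of the 4, as it had the highest reads of its group for Hmgcs1 (3411), Sqle (2354) and Insig1 (3159). LV Sham Control replicate 6 was far above its group in Lss (949). In the LV the change with PD differed between 5/6Nx and Sham rats in the limma interaction for Idi1 (0.57 on the log2 scale, adjusted p = 0.0468) and Cyp51 (0.56, adjusted p = 0.0409), where the means moved down with PD in Sham and up in 5/6Nx rats.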

How the results depend on the processing

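Across the alternatives that kept all libraries, no called gene of the 8 changed direction. For these genes 781 values kept their side of the threshold, 4 lost and 7 gained a call. With a library left out, 2126 kept their side, 35 lost and 15 gained a call. In 113 of all these values a difference near 0 changed sign with no call on either side. For PD in Sham LV, 0 of 8 genes were called, 2 with sample quality weights, and 0 to 2 with a library left out. For the interaction of PD and surgery in the LV, 1 was called, 0 without a filter, 0 under TMM scaling, 2 with limma-voom, 3 with quality weights, and 0 to 3 with a library left out. For the change with PD in Sham kidneys, 0 were called, 1 with quality weights, and 0 to 1 with a library left out, and for the difference of that change between the tissues 0 to 1. The cause was not tested. Counts over all genes moved more: 194 for PD in Sham LV became 62 to 1646 with a library left out and 107 to 1409 under the other alternatives, and 113 for the LV interaction became 2 to 695 and 57 to 1019. In the same order, 11 became 6 to 304 and 10 to 660 for surgery in LV Control, 14 became 2 to 24 and 9 to 61 for PD in 5/6Nx LV, 68 became 49 to 79 and 62 to 118 for PD over both surgeries in the LV, 23 became 5 to 152 and 9 to 171 for PD in Sham kidneys, 2 became 0 to 4 and 0 to 20 for PD in 5/6Nx kidneys, 30 became 17 to 77 and 31 to 111 for PD over both surgeries in the kidney, and 15 became 5 to 149 and 5 to 68 for the difference between tissues in Sham rats. Fits with a replicate block, added after seeing the data, took libraries of both tissues with serial numbers 26 apart as pairs. All 26 such pairs share surgery and treatment, but the labels do not say that they are of the same rat, and their deviations from the group means over 12907 genes had correlations of -0.36 to 0.44 (median 0.17, 16 over 0.1), with 14 kidney libraries closest to their own LV library. With this block 7 of the 8 genes were called between tissues, and 0 and 0 for the difference of the PD change between tissues in Sham and 5/6Nx rats, as without it, and over all genes the last gave 4 calls, against 0. Within a tissue, no paired analysis was possible because no numbers link its groups. Idi1 in the LV had the fewest reads of the 8 genes, 166 normalized reads in its lowest library.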

Other observations

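Fatty acid synthesis shares its SREBP regulators with the sterol route, and its 9 listed genes were read in the same way. None was called with PD in either tissue or surgery, and in Sham kidneys the 9 log2 differences were all below 0, with a median of -0.20 beside -0.01 over all genes tested. Scd, the stearoyl-CoA desaturase, had 199.6 to 5659.9 (median 3428) normalized reads in Sham Control against 69.1 to 1272 (median 981) in Sham PD kidneys and overlapped (-1.64, adjusted p = 0.323), and was picked out after its values were seen. By surgery the list gave 1 higher and 6 lower of 9 tested in the kidney without dialysis. At that contrast 52.2% of all genes were called (24.4% higher and 27.7% lower). The lower calls of Acaca (-0.39) and Acly (-0.24) there were lost in 4 and 6 of 13 fits that left out a library. Under PD the list gave 1 higher and 3 lower of 9 tested in the kidney, beside 40.1% of all genes called (20.2% higher and 19.9% lower). Acss2, which makes acetyl-CoA from acetate, had the largest difference without dialysis (-2.16, 17105 ± 11654 against 62764 ± 7087 normalized reads, adjusted p = 0.000512), and Fads1, a desaturase, the opposite (1.27, adjusted p = 0.000313). Proximal tubule sums, given above, were also lower in the 5/6Nx kidneys, and their part in these calls was not tested. In the LV under PD the list gave 2 higher and 3 lower of 9 tested, beside 37.8% of all genes called. Me1 (0.68) and Acss2 (0.48) were higher in 5/6Nx, and Fads2 (-0.54) and Fasn (-0.45) were lower. The calls of Fads2, Fasn and Acss2 there were lost in 2, 6 and 5 of 13 fits that left out a library (adjusted p up to 0.0746, 0.0793 and 0.065). Cell marker sums of these LV groups, given above, also differed, and their part in the calls was not tested.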
